A study of Mus musculus with 6 samples.

Results

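Paneth cells were taken as the single cells of the mouse jejunum in which lysozyme 1 (*Lyz1*) made up at least 2% of the RNA molecules counted, and they numbered 550 of the 26696 cells that passed the quality filters (2.06%). Molecules were counted as unique molecular identifiers (UMIs), short random tags that mark each captured RNA once. A droplet barcode called as a cell passed when it held at least 750 genes and at most 20% mitochondrial UMIs, and 6 barcodes over the *Lyz1* floor were left out because the goblet cell genes *Muc2*, *Fcgbp*, *Clca1*, *Tff3* and *Zg16* made up 3% or more of their UMIs. The members were chosen by their measured *Lyz1* share, so *Lyz1* and these mucus genes are given as descriptions only.

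The cells came from male wildtype C57BL/6J mice of about 30 weeks in 3 groups, and every group had an operation. LFD sham mice ate a low-fat diet and had a sham operation, HFD sham mice ate a high-fat diet and had a sham operation, and HFD VSG mice ate the high-fat diet and had vertical sleeve gastrectomy (VSG), in which most of the stomach is removed along its outer curve. The diets ran for 16 weeks before the operation and tissue was taken 5 weeks after it. Epithelium was loosened with EDTA, scraped off and strained into a crypt and a villus suspension, and cells were pooled from 3, 3 and 2 mice of the respective groups. Each group and fraction gave 1 library (10x Genomics 3′ v3.1 chemistry), so there was no replicate against which to judge a difference between libraries. Intervals are exact 95% intervals and cover counting error only. The 6 libraries are named below by group and labelled fraction. The comparisons of HFD sham to LFD sham (diet) and of HFD VSG to HFD sham (surgery) share the HFD sham libraries.

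Paneth cells sit at the base of the crypts of the small intestine among the stem cells. They pack large granules with lysozyme, alpha-defensins and other antimicrobial proteins and release them into the crypt, and they also present Wnt, Notch and epidermal growth factor ligands to the stem cells beside them. Their maturation depends on Wnt signalling through TCF/LEF factors and on Sox9. Alpha-defensins (cryptdins) are short peptides that break bacterial membranes after the protease encoded by *Mmp7* has cut their precursors, and the mouse genome holds a large cluster of near-identical copies of their genes.

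Sequences upstream of the genes that the results turn on are shown because *Lyz1* chose the cells, because *Mptx2* and *Defa22* went beyond 2-fold between libraries, and because *Defa30* differed little beside *Defa22*. Each runs 5′ to 3′ on the strand of its gene, from 171 to 22 bases before the start given by RefSeq (build GRCm38.p6). Capitals mark TATAAA and the TCF/LEF core CTTTGAT, read on both strands, so that ATCAAAG is its reverse complement. The window of *Lyz1* lies at chr10:117292890-117293039 on the minus strand, *Mptx2* at chr1:173277778-173277927 on the minus strand, *Defa22* at chr8:21162106-21162255 on the plus strand and *Defa30* at chr8:21134479-21134628 on the plus strand. All 4 windows end outside the transcripts that GENCODE vM21 gives for these genes.
Lyz1: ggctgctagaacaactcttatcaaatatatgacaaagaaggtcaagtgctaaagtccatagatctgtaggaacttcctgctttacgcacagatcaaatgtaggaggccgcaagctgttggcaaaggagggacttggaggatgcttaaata
Mptx2: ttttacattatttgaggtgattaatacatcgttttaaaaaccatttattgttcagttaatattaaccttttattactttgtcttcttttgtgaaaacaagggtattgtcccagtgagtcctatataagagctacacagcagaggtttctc
Defa22: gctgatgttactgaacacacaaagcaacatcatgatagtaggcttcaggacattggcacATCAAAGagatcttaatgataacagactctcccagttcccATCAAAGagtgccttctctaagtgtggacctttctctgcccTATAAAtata
Defa30: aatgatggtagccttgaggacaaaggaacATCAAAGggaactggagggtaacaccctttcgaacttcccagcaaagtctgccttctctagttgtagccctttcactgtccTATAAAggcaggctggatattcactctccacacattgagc
The same window of *Defa21*, at chr8:21025374-21025523 on the plus strand, has the same letters as that of *Defa22*. RefSeq upstream windows of 250 bases matched 12 of the 27 alpha-defensin genes in the files by name, and all 12 held at least 1 TCF/LEF core, against 3.21% of 32851 promoter windows of the same length, while 11 of 12 held TATAAA, against 12.4%. The E-box CAGCTG, the third motif searched, was in 1 of 12, against 13.0%. These 12 windows come from a cluster of related genes and are not separate cases. Of their 66 pairs 4 were identical, while identity compared base by base without gaps had a median of 27.6% and a lowest value of 18.4%. The nearest TATAAA lay 29 to 61 bases before the start, so many windows were out of register. A low identity without gaps therefore cannot show that 2 windows are unlike. The nearest TATAAA and TCF/LEF core lay 41 bases apart in 8 and 81 bases apart in 3 of the 11 windows with both. The windows of *Lyz1* and *Mptx2* held none of the 3 motifs. A match describes letters only.

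Paneth cells made up 1.02% of passing cells in the LFD sham crypts (47 of 4610, interval 0.750 to 1.35), 0.883% in the HFD sham crypts (29 of 3286, 0.592 to 1.27) and 0.784% in the HFD VSG crypts (41 of 5232, 0.563 to 1.06). These 3 intervals overlapped. They made up 3.91% in the LFD sham villi (178 of 4556, 3.36 to 4.51), 4.91% in the HFD sham villi (212 of 4315, 4.29 to 5.60) and 0.915% in the HFD VSG villi (43 of 4697, 0.663 to 1.23). The villus-labelled libraries thus held 433 of the 550 Paneth cells, although the cell type belongs to the crypt base, and the 2 sham villus libraries lay apart from the other 4. Other cell types also went against the fraction labels: cells with at least 3% of UMIs from enterocyte genes made up 83.0 to 85.0% of the crypt libraries and 29.7 to 62.7% of the villus libraries, and 8 cell cycle genes summed to 105 to 142 CPM (UMIs per 1000000) in the other cells of the crypt libraries and 290 to 679 CPM in those of the villus libraries. The names crypts and villi below therefore stand for the labels only. Among cells with at least 10000 UMIs, the share was 5.60% in the LFD sham villi and 3.75% in the HFD sham villi, so their order turned with depth. With at most 10% mitochondrial UMIs the shares were 3.79%, 2.34% and 2.67% in the crypts and 6.89%, 9.24% and 1.05% in the villi. The share of a suspension is set by what was released and captured, and fewer Paneth cells in the tissue cannot be told apart from fewer released.

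**Figure D1:**
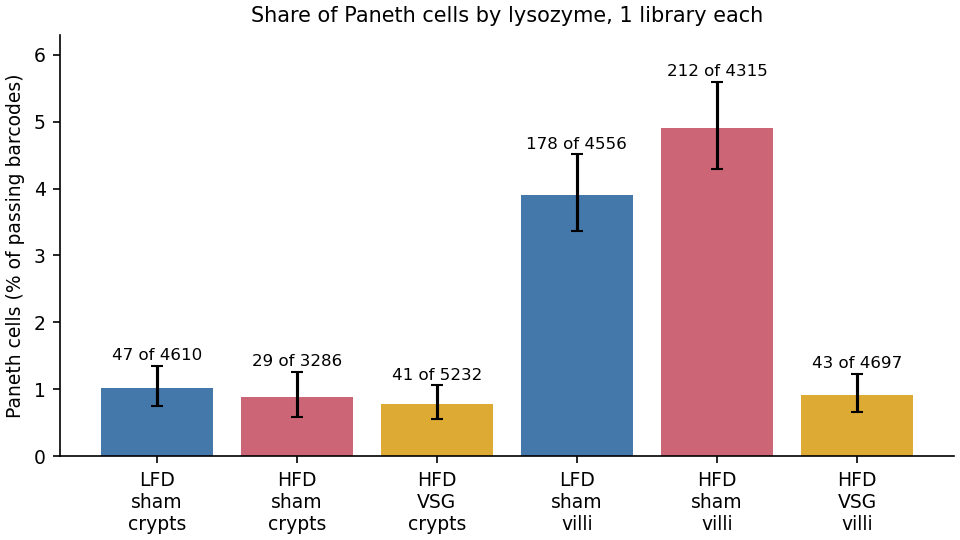
Share of Paneth cells among passing cells (vertical axis, %) in each of the 6 libraries. Bars are the share, lines the exact 95% binomial interval, and the cell numbers stand above. The LFD sham and HFD sham villi stand at 3.91% and 4.91% and the other 4 libraries between 0.784% and 1.02%.

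The lowest *Lyz1* share among the Paneth cells of a library was 2.01 to 2.18%, and the highest just outside was 1.76 to 1.99%. Between 1 and 2% lay 14, 7 and 1 cells in the LFD sham, HFD sham and HFD VSG crypts and 19, 69 and 10 in the villi. Between 2 and 3% lay 18, 5 and 4 cells in the crypts and 19, 40 and 6 in the villi. The HFD sham villi had the most cells near the floor, but as a share of its Paneth cells the band from 2 to 3% was fullest in the LFD sham crypts (38.3%, against 9.76 to 18.9% in the other 5 libraries). The median *Lyz1* share of a Paneth cell was 3.41%, 5.55% and 6.14% in the crypts and 5.92%, 5.56% and 5.30% in the villi.

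The barcodes called as cells held 60522766 to 155522445 UMIs per library, and the Paneth cells together held 663751 (HFD sham crypts) to 7692201 (LFD sham villi). No Paneth barcode occurred among the Paneth cells of a second library, and 5 of the 550 sequences also passed in another library. Droplets without a cell held free RNA, and alpha-defensins made up 0.825 to 1.39% of it in the crypts and 2.40 to 6.02% in the villi. *Defa24* was also seen in barcodes of T cells, a cell type that does not make it. With each cell thinned to 1500 UMIs, it was in 80.7 to 100% of barcodes with over 0.5% T cell genes. Such T cells held a mean of 1.79 to 12.1 *Defa24* UMIs and Paneth cells 313 to 426, so levels and not detection separate the 2 kinds of cell.

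All 12 Paneth marker genes of the list used were higher in the Paneth cells than in the other passing cells of each of the 6 libraries. Levels are in CPM of the Paneth cells of a library. Besides *Lyz1*, the median log2 ratio over libraries was 8.95 for *Defa22* (range 6.88 to 10.6), 8.06 for the ribonuclease gene *Ang4*, 8.02 for *Defa24*, 7.89 for the lectin gene *Itln1*, 7.61 for pancreatic colipase (*Clps*), 7.42 for the mucosal pentraxin gene *Mptx2* and 6.38 for *Mmp7*. These are descriptions, since a lysozyme-rich cell was sought. The 20 highest ratios belonged to *Lyz1*, to *Ang4*, to *Itln1* and to 17 alpha-defensin genes. *Spink4* (3.23) and the stem cell factor receptor gene *Kit* (2.82) were also higher than in other cells. Set against cells rich in goblet genes, which carry both, their median ratios were -1.08 and -0.46, and *Reg3g* against other cells was at -1.66 (range -1.99 to -0.94). These 3 directions rest on the total. *Lyz1* and the alpha-defensins fill most of it in Paneth cells and little of it elsewhere, and with their UMIs left out every ratio to other cells rose by 1.44 to 1.90. *Spink4* and *Kit* were then at 0.57 and 1.21 against goblet-rich cells, and *Reg3g* at -0.06 against other cells, higher in 3 of 6 libraries.

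Not every member carried the whole programme. Alpha-defensins made up a median of 54.1% of a Paneth cell's UMIs, with a range of 0.525 to 82.4%, and 8 of 550 cells held less than 10%. The lowest were 1 cell of the HFD VSG villi with 0.525% at 24955 UMIs and 1 of the HFD sham villi with 1.63% at 9345 UMIs. Of these 8 cells, 4 held no *Mptx2* UMI. These few cells met the *Lyz1* floor but held little of the alpha-defensin share of the others.

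The alpha-defensin share went with the depth of a cell. Within a library, Spearman's rho between UMIs and alpha-defensin share was 0.878, 0.740 and 0.731 in the LFD sham, HFD sham and HFD VSG crypts (47, 29 and 41 cells) and 0.617, 0.841 and 0.673 in the villi (178, 212 and 43 cells), where both measures share the UMI total. The 212 cells under 10000 UMIs had medians of 22.4 to 35.8% and the 338 deeper cells 60.0 to 69.1%. Shallow cells made up 61.7%, 34.5% and 34.1% of Paneth cells in the crypts and 24.2%, 51.9% and 14.0% in the villi.

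Shallow cells also held more mitochondrial RNA and more transcripts of damaged droplets. The median mitochondrial share was 5.03 to 12.2% in shallow and 0.965 to 2.82% in deep cells. *Gm42418*, *Gm26917*, *Lars2* and *AY036118*, transcripts that overlap ribosomal RNA or mark damaged droplets, together took 5.27 to 14.3% and 0.253 to 1.35%.

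**Figure D2:**
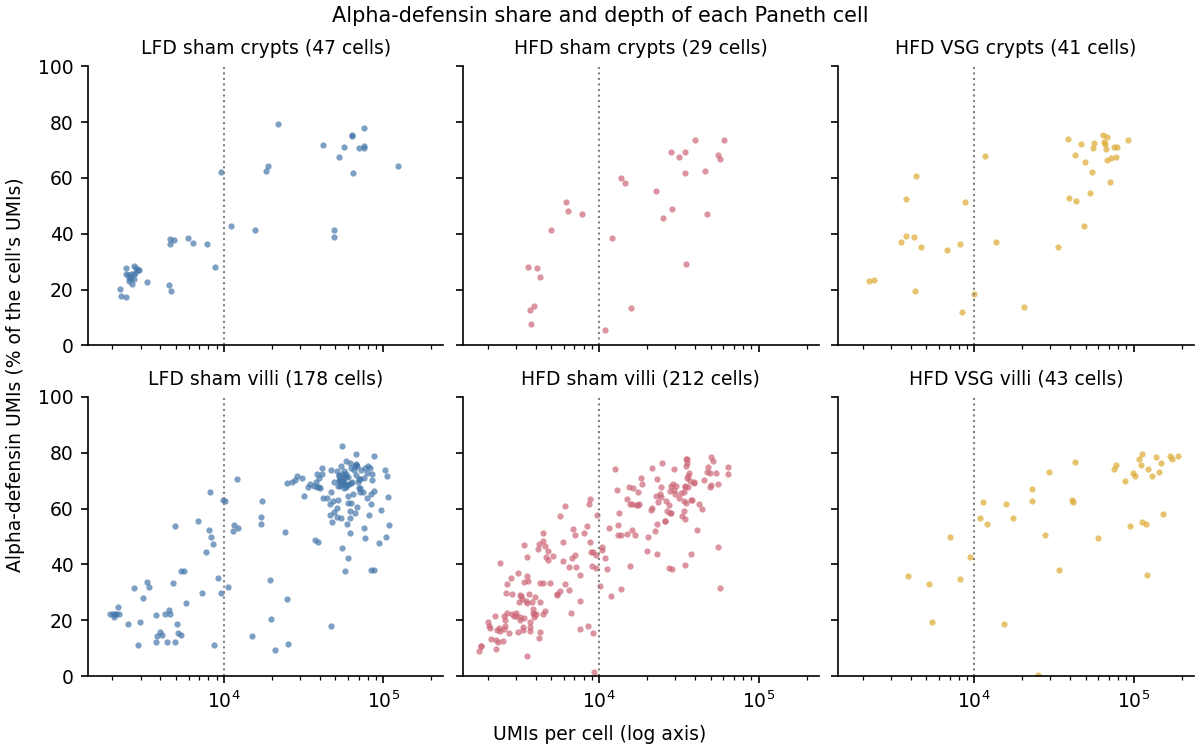
Each point is 1 Paneth cell, with its UMIs (horizontal, log axis) and the share of alpha-defensin UMIs (vertical, %), in a panel per library. The dotted line marks 10000 UMIs, left of which medians lay at 22.4 to 35.8% and right of which at 60.0 to 69.1%.

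Summed over Paneth cells, the 27 alpha-defensin genes took 62.6%, 56.7% and 63.9% of all UMIs in the LFD sham, HFD sham and HFD VSG crypts and 63.6%, 58.8% and 67.6% in the villi. The HFD sham library was the lowest of its fraction both times, but by the median cell the LFD sham crypts were the lowest (36.5%, against 48.3% and 58.4%). The Paneth cells of the HFD sham libraries also held the most mitochondrial UMIs (35961 and 32592 CPM of the 13 genes encoded there, against 15437 to 22666 CPM). Summed over cells, they held the most damaged-droplet transcripts as well. By the median cell the LFD sham crypts held more of these than the HFD sham crypts (5.77% against 4.93%). Cells under 10000 UMIs were 51.9% of the Paneth cells of the HFD sham villi, against 24.2% in the LFD sham villi. In the crypts the order was the other way, with 34.5% in HFD sham and 61.7% in LFD sham. The part of these in the alpha-defensin level was not tested. *Defa24* alone held 45.6 to 50.3% of these UMIs, and the 6 leading genes (*Defa24*, *Defa30*, *AY761184*, *Defa17*, *Defa21* and *Defa22*) held 87.9 to 89.5%. The summed log2 ratio of HFD sham to LFD sham was -0.14 (interval -0.15 to -0.14) in the crypts and -0.11 (-0.12 to -0.11) in the villi. That of HFD VSG to HFD sham was 0.17 (0.17 to 0.18) and 0.20 (0.20 to 0.20). These are small ratios on a large level, and with the mean over cells of each share the crypt diet value was 0.12. In cells with at least 10000 UMIs the diet values were -0.18 and -0.03 and the surgery values 0.16 and 0.11.

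Between libraries, a gene was compared where its UMIs in the 2 libraries averaged 50 or more, and ratios beyond 2-fold are counted. In HFD sham to LFD sham crypts, 18 of 658 genes were over 2-fold higher (2.74%) and 8 lower (1.22%), 3.95% in all. In the villi 123 of 4385 were higher (2.81%) and 56 lower (1.28%), 4.08% in all. In HFD VSG to HFD sham crypts 3 of 811 were higher (0.37%) and 35 lower (4.32%), 4.69% in all. In the villi of that comparison 10 of 2624 were higher (0.381%) and 585 lower (22.3%), 22.7% in all. The median of all genes was 0.09, 0.16, -0.17 and -0.48 in these 4 comparisons. Because *Lyz1* and the alpha-defensins fill most of each total, the split follows the scaling. With their UMIs left out of the total it was 11 higher and 18 lower, 61 and 95, 13 and 21, and 111 and 205, and with median-of-ratios scaling 14 and 11, 54 and 106, 7 and 26, and 69 and 288. Leaving their UMIs out shifted every gene by -0.22, -0.19, 0.33 and 0.37 on the log2 scale.

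Of the 27 alpha-defensin genes 21 reached the minimum in every comparison, and only *Defa22* in HFD VSG to HFD sham crypts lay beyond 2-fold (1 of 21, beside 0.37% of all genes). That count depends on the total, which these genes fill. With *Lyz1* and alpha-defensin UMIs left out of it, *Defa21* and *Defa22* were beyond 2-fold lower for diet in the crypts, *Defa21*, *Defa22*, *Defa32*, *Defa34* and *Gm14851* higher for surgery in the crypts, and *AY761184*, *Defa5*, *Defa23*, *Defa34* and *Gm14851* higher for surgery in the villi. Of all genes with that total, 18 of 658 were lower for diet in the crypts. For surgery 13 of 811 were higher in the crypts and 111 of 2624 in the villi. With median-of-ratios scaling 0, 0, 4 and 2 of 21 were beyond 2-fold in the 4 comparisons. Higher for surgery were then 7 of 811 of all genes in the crypts and 69 of 2624 in the villi. The median log2 ratio over these genes was -0.14 and -0.20 for diet and 0.45 and 0.31 for surgery, in crypts and villi. *Defa22* stood at 41746, 23251 and 50998 CPM in the LFD sham, HFD sham and HFD VSG crypts and at 26986, 21434 and 33179 CPM in the villi. HFD sham was the lowest in both fractions. The log2 ratio was -0.84 and -0.33 for diet and 1.13 (interval 1.11 to 1.16) and 0.63 (0.62 to 0.64) for surgery.

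*Defa21*, with the same upstream letters, stood at 44656, 25794 and 48987 CPM in the crypts and 31280, 23774 and 35525 CPM in the villi. Its order matched that of *Defa22*, but the 2 genes are not separate evidence: of the 90-base windows in the last 400 bases of the transcript, only 58.2% for *Defa22* and 57.9% for *Defa21* occurred in no other gene. *Gm14851* stood at 15668, 10096 and 16710 CPM in the crypts and 17862, 15357 and 28683 CPM in the villi, with 78.6% of windows unique. *AY761184*, with all windows unique, stood at 59699, 45109 and 53807 CPM and at 69727, 44469 and 69263 CPM. All 4 genes were lowest in HFD sham in both fractions.

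*Defa24* and *Defa30* differed less between libraries. *Defa24*, all of whose windows were unique, stood at 301127, 285556 and 291805 CPM in the crypts and 317110, 295614 and 319760 CPM in the villi. *Defa30*, 95.5% unique, stood at 75030, 88108 and 80944 CPM and at 87389, 102259 and 101518 CPM, with log2 ratios of 0.23 and 0.23 for diet. For surgery its ratio was -0.12 and -0.01, and with the lysozyme and defensin UMIs left out of the total 0.21 and 0.36. The defensins thus kept no common ratio. *Defa36* went the other way in the villi (0.57 for diet and -0.86 for surgery), but none of its windows was unique. In the annotation of GENCODE vM21 (GRCm38) *Defa24* lies at chr8:21734494-21735471, *Defa22* at chr8:21162277-21163249 and *Defa21* at chr8:21025545-21026516, all on the plus strand, and *AY761184* at chr8:21702519-21703645 on the minus strand.

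**Figure D3:**
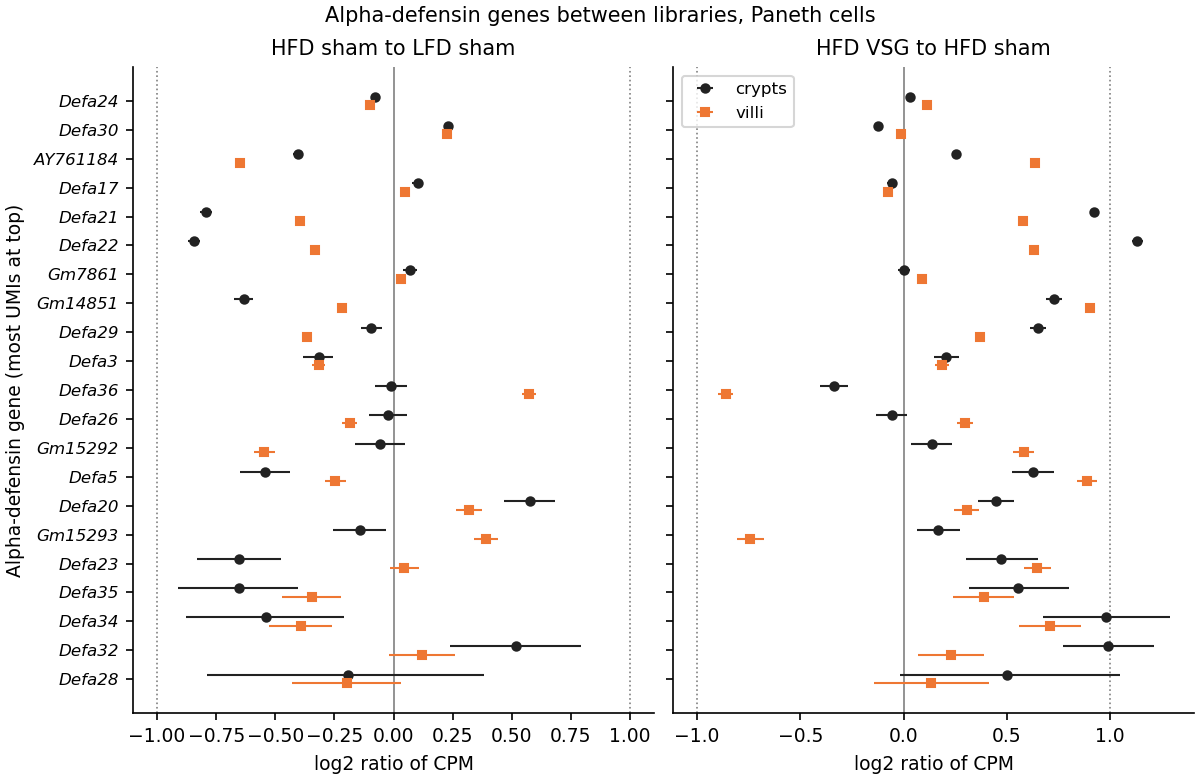
Log2 ratio of CPM (horizontal) for the 21 alpha-defensin genes measured in all 4 comparisons, ordered by UMIs, for diet (left) and surgery (right). Circles are crypts, squares villi, and lines exact 95% Poisson intervals, with 2-fold dotted. *Defa22* reaches -0.84 for diet and 1.13 for surgery in the crypts while *Defa24* stays between -0.10 and 0.11.

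The largest difference among the 12 Paneth marker genes in each of the 4 comparisons was in *Mptx2*, which encodes a pentraxin that binds bacteria. It stood at 3152, 649 and 3699 CPM in the LFD sham, HFD sham and HFD VSG crypts and at 4502, 1427 and 3287 CPM in the villi. HFD sham was far the lowest in both fractions, with no overlap of the counting intervals. The ratio of HFD sham to LFD sham was -2.28 (interval -2.43 to -2.13; 4.85-fold lower) in the crypts and -1.66 (-1.70 to -1.61; 3.15-fold lower) in the villi. That of HFD VSG to HFD sham was 2.51 (2.37 to 2.65; 5.70-fold higher) and 1.20 (1.15 to 1.25; 2.30-fold higher).

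The *Mptx2* pattern was also there cell by cell. Of the *Mptx2* UMIs in the LFD sham crypts, 28.0% came from 1 cell, and in no other library did 1 cell hold over 22.2%. Among cells with at least 10000 UMIs the median level was 1673, 400 and 1835 CPM in the crypts (18, 19 and 27 cells) and 2829, 327 and 1084 CPM in the villi (135, 102 and 37 cells). The median cell of HFD sham was thus the lowest in both fractions. Deep cells without any *Mptx2* UMI numbered 0, 4 and 1 in the crypts and 2, 20 and 3 in the villi. Their median depth was lowest in HFD sham (54360, 31511 and 55393 UMIs in the crypts and 56197, 27792.5 and 87973 in the villi). The part of depth in these counts was not tested. For detection the HFD sham and HFD VSG crypts had 29 and 41 cells. Thinned to 1500 UMIs, *Mptx2* was seen in 87.2%, 55.2% and 65.9% of Paneth cells of the crypts and 79.8%, 46.7% and 79.1% of the villi (unthinned 95.7%, 75.9%, 82.9%, 95.5%, 72.6% and 93.0%). In T cells of the same libraries it was seen in 4.24%, 1.33%, 7.02%, 14.9%, 0% (3 cells) and 4.88%, and each Paneth share was the higher. Median depths were 4851 to 60044 UMIs in Paneth cells and 1876 to 5330 in T cells. The gene kept its direction and stayed beyond 2-fold in all 4 comparisons under every alternative run. At the level of single deep cells *Mptx2* and *Defa22* went together only loosely, with rho of 0.100, 0.334 and 0.135 in the crypts and 0.142, 0.175 and 0.412 in the villi.

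**Figure D4:**
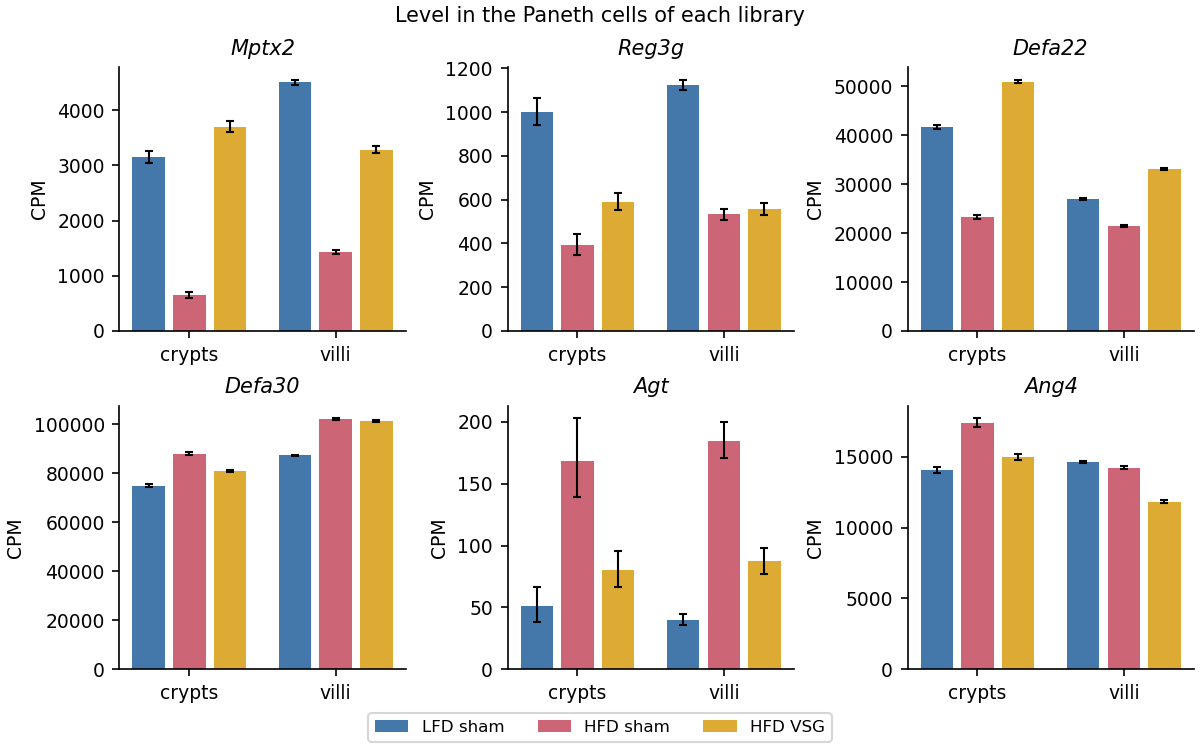
Level of 6 genes in the Paneth cells of each library (CPM, vertical, each panel on its own scale from 0). Bars are summed levels and lines exact 95% Poisson intervals. *Mptx2* and *Defa22* are lowest in HFD sham in both fractions, *Agt* is highest there, and *Ang4* stays between 11825 and 17403 CPM.

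Of the 13 other antimicrobial genes in the files, 9 or 10 were measured in each comparison. Beyond 2-fold were *Mptx2* and *Reg3g* (lower) for diet in both fractions (2 of 9 and 2 of 10, beside 1.22% and 1.28% of all genes), *Reg3a* (higher, 2.50, from 33 and 84 UMIs, 30.3% of the former in 1 cell; 1 of 10 beside 2.81%) for diet in the villi, and for surgery *Mptx2* in both (1 of 9 and 1 of 10, beside 0.37% and 0.381%) and *Reg3b* (-1.25, 54.4% of the HFD sham crypt UMIs in 1 cell; 1 of 9 beside 4.32%) in the crypts. With the lysozyme and defensin UMIs left out of the total, *Reg3b* was at -0.92. *Ang4*, which encodes a bactericidal ribonuclease, stood at 14082, 17403 and 14978 CPM in the crypts and 14612, 14240 and 11825 CPM in the villi. *Itln1* lay between 34660 and 42448 CPM, *Reg4* between 826 and 1256 and *Nupr1* between 602 and 883. These genes stayed within 2-fold in every comparison, beside the wide range of *Mptx2*.

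*Reg3g*, which encodes a lectin that kills Gram-positive bacteria, stood at 1002, 392 and 591 CPM in the crypts and at 1123, 532 and 555 CPM in the villi. The log2 ratio was -1.36 (-1.56 to -1.16) and -1.08 (-1.15 to -1.01) for diet and 0.59 (0.39 to 0.80) and 0.06 (-0.03 to 0.16) for surgery. Of the HFD sham crypt UMIs 36.5% came from 1 cell. In the other passing cells of the same libraries the level was 3579, 1539 and 1137 CPM and 4458, 1479 and 1407 CPM. With *Lyz1* and alpha-defensin UMIs left out of both totals, the Paneth cells stood below these other cells in the LFD sham and HFD sham crypts and LFD sham villi and above them in the other 3 libraries. Thinned to 1500 UMIs it was seen in 72.3% and 65.7% of the LFD sham Paneth cells and in 66.1% and 69.1% of the T cells, with intervals of 57.4 to 84.4% and 58.3 to 72.7% for Paneth cells and 56.8 to 74.6% and 65.2 to 72.9% for T cells. These overlap, and the Paneth cells, with median depths of 4851 and 50209 UMIs against 3242 and 3071, were the deeper.

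Among 15 genes of granules and protein processing, 13, 15, 14 and 15 were measured in the 4 comparisons. For diet 2 of 13 were beyond 2-fold higher in the crypts and 1 of 15 in the villi, beside 2.74% and 2.81% of all genes. For surgery 1 of 14 and 3 of 15 were lower, beside 4.32% and 22.3%, and with the lysozyme and defensin UMIs left out of the total no granule gene was beyond 2-fold for surgery. *Agt*, which encodes angiotensinogen, was among them each time. It stood at 51.0, 169 and 80.1 CPM in the LFD sham, HFD sham and HFD VSG crypts and at 40.2, 185 and 87.2 CPM in the villi. HFD sham was the highest in both fractions. The log2 ratio was 1.73 (1.25 to 2.22) and 2.20 (2.00 to 2.40) for diet, and -1.07 (-1.45 to -0.69) and -1.08 (-1.30 to -0.88) for surgery. The surgery values came to -0.74 and -0.72, within 2-fold, with the lysozyme and defensin UMIs left out of the total. In other cells *Agt* had 0.7 to 4.0 CPM. *Agt* lies at chr8:124556534-124569706 on the minus strand (GRCm38).

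*Agr2*, a protein disulphide isomerase gene of mucus-secreting cells, had a diet ratio of 2.03 in the crypts with 32.7% of the HFD sham UMIs in 1 cell, and 0.88 in the villi. *Spink4* lay between 6246 and 9512 CPM and *Mmp7* between 1707 and 2313 CPM, within 2-fold in each comparison. The 4 digestive enzyme genes did not go beyond 2-fold where measured (2 or 3 genes): *Clps* lay between 3733 and 4726 CPM and the lipase gene *Pnliprp2* between 928 and 1386 CPM. Apart from the genes named, granule genes of these lists thus stayed within 2-fold for diet.

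Ligands and receptors of the stem cell niche were sparse. *Wnt3*, the Wnt ligand made by Paneth cells, stood at 37.8, 45.2 and 42.7 CPM in the crypts and 44.5, 61.1 and 40.2 CPM in the villi, from 30 to 342 UMIs. Its log2 ratio to other cells had a median of 5.37 (4.33 to 6.94). Only in the villi did it reach the minimum, and its ratio there was 0.46 (0.20 to 0.71) for diet and -0.60 (-0.94 to -0.28) for surgery. *Bambi*, a decoy receptor of TGF-beta signalling, lay between 76.3 and 104 CPM. The ligand genes *Egf* (3.8 to 6.0 CPM), *Tgfa* (2.3 to 7.5) and *Dll4* (1.9 to 4.9) were near the limit of these counts. Of 14 niche genes 1 to 4 were measured, and beyond 2-fold was *Acvr1c*, an activin receptor gene, for surgery in the villi (1 of 3 beside 22.3% of all genes; -1.10, -0.74 with the lysozyme and defensin UMIs left out of the total, and -0.68 in deep cells).

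Of 20 regulators of secretory cells 3, 18, 5 and 12 were measured. *Sox9*, needed for Paneth cells to form, lay between 71.1 and 108 CPM and within 2-fold in each comparison. Beyond 2-fold lower were *Sox4* for diet in the villi (-1.54, 1 of 18 beside 1.28% of all genes), *Klf4* for surgery in the crypts (-1.06, 1 of 5 beside 4.32%), and *Kit* (-1.55), *Tcf7l2* (-1.44) and *Ephb3* (-1.05) for surgery in the villi. There 22.3% of all measured genes were lower, and 3 of 12 regulators is a share near it. *Tcf7l2* encodes a TCF/LEF factor and *Ephb3* a receptor that places Paneth cells at the crypt base. With the lysozyme and defensin UMIs left out of the total, *Sox4*, *Kit* and *Tcf7l2* were still beyond 2-fold and *Klf4* and *Ephb3* were not. In deep cells *Ephb3* was at -0.88.

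Stress and secretory-load genes gave few calls. Of 21 genes of the endoplasmic reticulum 13 and 21 were measured for diet with none beyond 2-fold, and 14 and 20 for surgery with 0 and 3 lower, namely *Hspa5* (-1.04), a chaperone, *Ern1* (-2.0), a sensor of unfolded proteins, and *Hyou1* (-1.68). These 3 of 20 lie below the 22.3% of all genes, and *Hspa5* was at -0.67 with the lysozyme and defensin UMIs left out of the total and at -0.93 in deep cells. Of the integrated stress genes only *Atf3* was beyond 2-fold, 1.58 and -1.83 for diet in crypts and villi and -2.70 for surgery in the crypts (1 of 3, 1 of 6 and 1 of 4, beside 2.74%, 1.28% and 4.32% of all genes). None of the measured glycolysis genes (2, 10, 5 and 8 of 16) went beyond 2-fold, *Gapdh* and *Ldha* included. Of the zinc genes only *Mt2*, a metallothionein gene, did (1.02, diet, villi, 1 of 7 beside 2.81%), and of the innate and autophagy genes only *Sqstm1* (-1.02, surgery, villi, 1 of 6 beside 22.3% of all genes). With the other total *Mt2* was at 0.83 and *Sqstm1* at -0.65, while *Mt1* (-0.93 for diet in the crypts) came to -1.15. The receptor gene *Nod2* had 1 UMI in all Paneth cells.

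The 13 mitochondrially encoded genes had a median log2 ratio of 0.55 (0.22 to 0.86) in the crypts and 0.60 (0.34 to 0.96) in the villi for diet, and none was beyond 2-fold. With the lysozyme and defensin UMIs left out of the total these medians were 0.33 and 0.42, with *mt-Nd4l* at -0.0061 and *mt-Atp8* at 0.0038 in the crypts. For surgery the median was -0.72 and -1.19, with 2 and 8 of 13 beyond 2-fold lower beside 4.32% and 22.3% of all genes, led by *mt-Atp8* (-3.64) and *mt-Nd6* (-3.56) in the villi. With the other total 1 and 6 of 13 were, beside 21 of 811 and 205 of 2624 of all genes. The filter at 20% mitochondrial UMIs caps this measure. The same libraries differed in the damaged-droplet transcripts, which summed to 19864, 32063 and 5556 CPM in the crypts and 11597, 31358 and 6046 CPM in the villi, and their part in these ratios was not tested. In the Paneth cells both groups of transcripts thus stood highest in HFD sham in both fractions. In other cells the damaged-droplet transcripts summed to 79357, 68564 and 15225 CPM in the crypts. In the villi they summed to 60944, 45517 and 9180 CPM, so LFD sham was the highest in both fractions. The mitochondrial genes there summed to 129115, 120542 and 125126 CPM in the crypts and 107530, 112529 and 79462 CPM in the villi.

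**Figure D5:**
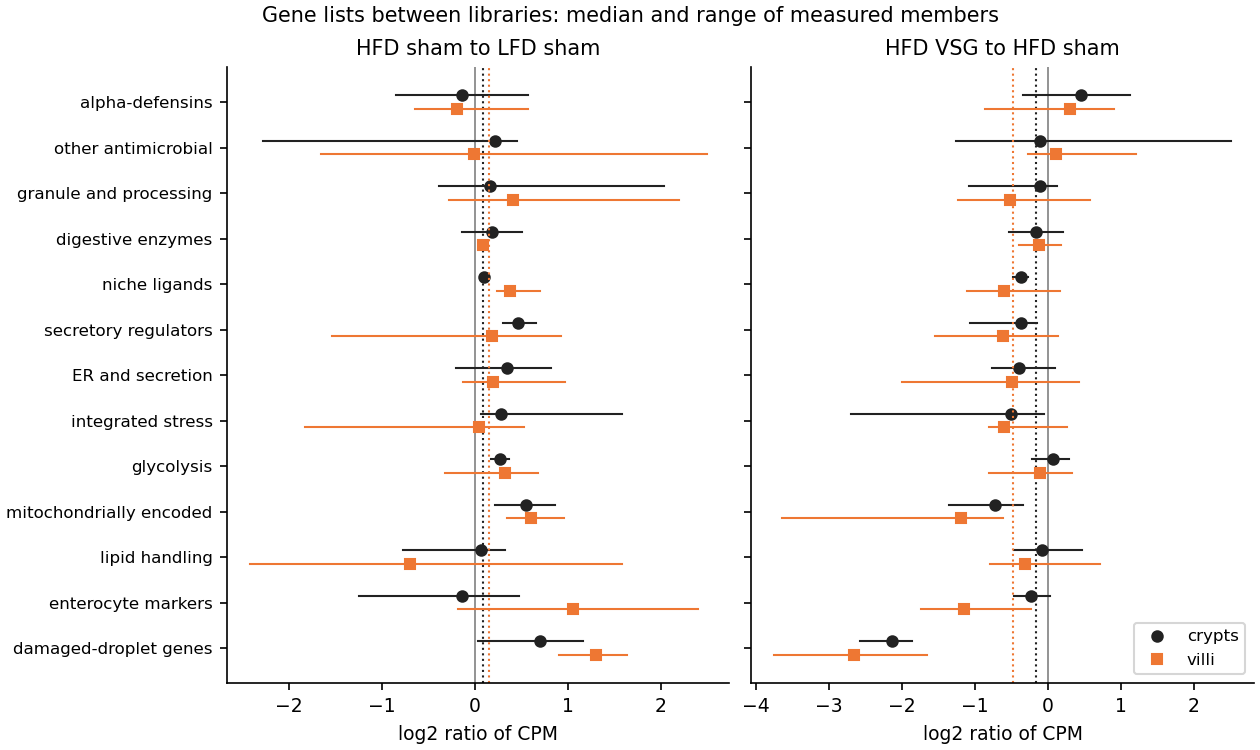
Median (point) and range (line) of the log2 ratio of CPM over the measured genes of each list, for diet (left) and surgery (right); circles are crypts and squares villi, and dotted lines mark the median of all measured genes. The alpha-defensin medians lie at -0.14 and -0.20 for diet and 0.45 and 0.31 for surgery, and the mitochondrially encoded genes go from 0.55 and 0.60 to -0.72 and -1.19.

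Genes of other cell types were also present. Enterocyte genes made up 4.25% of the UMIs of the median Paneth cell in the LFD sham crypts and 0.0744 to 0.714% in the other 5 libraries. The 11 enterocyte genes summed to 8088, 8140 and 6822 CPM in the crypts and 1578, 3818 and 2343 CPM in the villi. In other cells they summed to 83422, 91534 and 91912 CPM in the crypts and 40956, 63737 and 33751 CPM in the villi. Of the free RNA they made up 6.34%, 7.65% and 9.05% in the crypts and 2.80%, 3.88% and 3.47% in the villi. In the villi HFD sham was thus the highest in all 3 measures, and the part of free RNA in the ratios below was not tested. In the villi 7 of 11 were beyond 2-fold higher for diet, led by *Rbp2* (2.40), which carries retinol, and the lipid carriers *Fabp2* (1.59) and *Fabp1* (1.41), and 8 of 10 lower for surgery, beside 2.81% higher and 22.3% lower of all genes. With the lysozyme and defensin UMIs left out of the total these came to 5 of 11 and 1 of 10 (*Apoa4*). Of all genes 61 of 4385 were then higher for diet and 205 of 2624 lower for surgery. In the crypts none was beyond 2-fold higher for diet and 2 of 10 were lower, *Sis* (-1.09, 42.9% of the HFD sham UMIs in 1 cell) and *Mgam*, beside 1.22% of all genes, and none of 10 was beyond 2-fold for surgery. The shallow cells of the LFD sham crypts held a median of 5.02% enterocyte UMIs and the deep ones 0.136%. The part of depth in these crypt values was not tested. In cells with at least 10000 UMIs the crypt levels were 4005, 7520 and 5895 CPM, and the summed diet ratio rose from 0.01 to 0.91. None of the 10 was then beyond 2-fold lower for diet and 3 were higher, namely *Fabp1* (1.47), *Fabp2* (1.33) and *Rbp2* (1.29), with 66.0%, 31.8% and 54.4% of the HFD sham UMIs of all members in 1 cell. In the villi deep cells gave 5 of 11 higher for diet and 3 of 10 lower for surgery. The 5 goblet genes, which the rule caps, summed to 1679, 3256 and 1702 CPM in the crypts and 1716, 2956 and 1937 CPM in the villi. The 8 T cell genes summed to 0.646 to 52.5 CPM and the 6 tuft cell genes to 0 to 3.01 CPM. In the HFD sham crypts 99.6% of the somatostatin (*Sst*) UMIs, 86.3% of *Fcgbp* and 77.8% of *Zg16* lay in 1 cell.

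*Olfm4*, a stem cell gene, stood at 132, 51.2 and 25.8 CPM in the crypts and 421, 125 and 109 CPM in the villi, but 82.1% of the LFD sham crypt UMIs, 92.5% of the HFD VSG crypt UMIs and 91.6% of the HFD VSG villus UMIs came from 1 cell each. In the villi the diet ratio was -1.75. *Cd74*, of antigen presentation, had 385 UMIs in the LFD sham villi and 6 in the HFD sham villi (-4.86, -6.31 to -3.72). The other cells of these libraries held 440 and 35.2 CPM of it against 50.1 and 1.7 CPM in Paneth cells. *Cd74* was thus lower in HFD sham than in LFD sham villi in the other cells as well.

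The furthest ratios in each comparison, over genes averaging 100 UMIs or more, were as follows. For diet in the crypts *Sst*, *Agr2* and *Zg16* were highest and *Mptx2*, *Reg3g* and the disaccharidase gene *Mgam* (-1.25, 32.5% of HFD sham UMIs in 1 cell, and -0.27 in deep cells) lowest. For diet in the villi *Adh1* (2.63), *Rbp2* and *Agt* were highest and *Cd74*, the heat shock gene *Hsph1* (-2.08) and *Atf3* lowest. For surgery in the crypts *Mptx2*, *Defa22* and *Defa32* (0.99) were highest and *Sst*, *Fcgbp* (-2.75) and *Gm42418* (-2.57) lowest. For surgery in the villi the ribosomal protein gene *Rpl10* (1.25), *Mptx2* and *Rps15a* (1.13) were highest and *Gm26917* (-3.75), *mt-Atp8* and *mt-Nd6* lowest. *Mptx2* is the one gene found at an end of the list in 3 of 4 comparisons.

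Beyond 2-fold in the same direction in crypts and villi were 4 higher genes for diet (*Luc7l2*, *Cracr2a*, *Agt* and *Gm26917*). This was 25% of the 16 called in the crypts and 11.4% of the 35 called in the villi, among 656 genes measured in both. With the lysozyme and defensin UMIs left out of the total only *Agt* of the 4 was beyond 2-fold in both, and in deep cells likewise. The 3 lower ones were *Mptx2*, *Reg3g* and *Olfm4* (37.5% of the 8 called in each fraction), and all 3 were so with that total and in deep cells. The crypt call of *Olfm4* leans on 1 cell, which held most of its LFD sham crypt UMIs, as given above. For surgery, among 807 genes, *Mptx2* was the 1 shared higher gene, of 3 called in the crypts and 4 in the villi. Lower in both were 20 genes, 62.5% of the 32 called in the crypts and 14.1% of the 142 called in the villi. They included *Agt*, *Cracr2a*, *Luc7l2*, *Mme*, *Enpep*, *Adh1*, *Malat1*, *Neat1* and the damaged-droplet transcripts. With that total *Mptx2* and 8 of the 20 were beyond 2-fold in both, among them *Cracr2a* and the 4 damaged-droplet transcripts, and *Agt*, *Luc7l2*, *Mme*, *Enpep*, *Adh1*, *Malat1* and *Neat1* were not. In deep cells *Mptx2* and 14 of the 20 were, *Agt* included. These recounts follow only the genes called with all UMIs in the total. With the lysozyme and defensin UMIs left out, 2 alpha-defensin genes were also beyond 2-fold higher for surgery in both. They were *Defa34* (1.31 in the crypts and 1.07 in the villi) and *Gm14851* (1.06 and 1.27). The crypt and villus libraries of a group come from the same mice, so these are not separate groups of animals.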

How the data were processed

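RNA of single jejunal epithelial cells was measured in 6 libraries, a crypt and a villus one for LFD sham, for HFD sham and for HFD VSG. Per the labels, the authors used Cell Ranger 6.0.0 with the mm10 genome (submitters' processing notes) and deposited matrices of whole UMI counts for all barcodes and for barcodes called as cells, with no normalization, no removal of free RNA and no removal of doublets. Barcodes numbered 59457, of which 26696 passed (at least 750 genes, at most 20% mitochondrial UMIs). Paneth cells were those with *Lyz1* at 2% or more of UMIs and the 5 mucus genes under 3%. The members and gene lists were chosen with earlier results of these data known.

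UMIs were summed per library over the Paneth cells and scaled to CPM of all their UMIs (663751 to 7692201). Sums under 3 were set to 3 in ratios, and genes averaging 50 UMIs or more over the 2 libraries were compared. Intervals are exact (Poisson, binomial, and the conditional binomial for ratios) at 95% and cover counting error only. With 1 pooled library per group no test was run and no p-value is given. Genes named are those of the lists and the 20 highest against other cells. In each comparison the 3 highest and 3 lowest ratios at an average of 100 UMIs or more were added. The share of a gene's UMIs in 1 cell is given for several genes where it passed 25%. Detection was compared after thinning each cell to 1500 UMIs, and barcodes with fewer were left out (0 Paneth cells). T cells were barcodes with over 0.5% of 6 T cell genes, outside the Paneth, goblet and enterocyte gates. Free RNA was read from droplets with fewer than 100 UMIs.

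Doublets were kept, as the rule has no such step, and removed in an alternative (kNN score against 2 simulated doublets per barcode, 2000 genes, 30 components, 20 neighbours, 0.8% per 1000 barcodes), which took 4794 of 59457 barcodes and 56 of 550 Paneth cells. Other alternatives were a *Lyz1* floor of 1 or 4%, at most 10% mitochondrial UMIs, free RNA subtracted, other scalings, minimum means of 20 or 200 UMIs and the mean over cells. Members with at least 10000 UMIs only was added after seeing the data. The scripts were tested on simulated data. Gene positions come from GENCODE vM21 (GRCm38) and upstream sequence from RefSeq (GRCm38.p6), which matched 21 of 37 genes sought. Python 3.11.15, numpy 2.4.6, scipy 1.17.1, pandas 2.3.3 and matplotlib 3.10.9 were used.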

Additional observations from a re-analysis of the deposited data

Results flagged for a closer look

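Among barcodes called as cells that failed the filter on genes or mitochondrial UMIs, and so were not used in any comparison, those with *Lyz1* at 2% or more of UMIs numbered 34, 14 and 25 in the LFD sham, HFD sham and HFD VSG crypts and 57, 457 and 59 in the villi. This was 5.94% of the failing barcodes in the HFD sham villi and 0.232 to 1.92% in the other 5 libraries. In the HFD sham villi 439 of the 457 held fewer than 750 genes. Counted by the same floor, lysozyme-rich barcodes outside the filter were more numerous than the Paneth cells inside it in the HFD sham villi (457 and 212) and in the HFD VSG villi (59 and 43).

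3 genes lay beyond 2-fold in opposite directions in the crypts and the villi of the same comparison. For diet, the log2 ratio of the stress gene *Atf3* was 1.58 in the crypts and -1.83 in the villi, and that of *Pck1*, of gluconeogenesis, was -2.39 and 1.27. For surgery, the ratio of the immediate early gene *Egr1* was -1.53 in the crypts and 1.11 in the villi. *Pck1* had 125 UMIs in the LFD sham crypts with 48.8% in 1 cell, and 15 in the HFD sham crypts. With 1 library each, the difference between fractions was not tested for any of the 3.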

How the results depend on the processing

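No paired analysis was possible because each group has 1 library per fraction and the results come from no test. Values are in the order LFD sham, HFD sham, HFD VSG, or as named. The Paneth share moved beyond its interval with a *Lyz1* floor of 1% in the HFD sham villi (6.51%), with a floor of 4% in the LFD sham crypts (0.347%), LFD sham villi (2.92%) and HFD sham villi (3.38%), and at most 10% mitochondrial UMIs gave 3.79%, 2.34% and 2.67% in the crypts and 6.89% and 9.24% in the sham villi. Among cells with at least 10000 UMIs, a choice made after seeing the data, the sham villi gave 5.60% and 3.75%. Removing doublets or free RNA moved no share beyond its interval. The subtraction took the same amount of free RNA from each barcode of a library. The paper's own estimate of background RNA was highest in the HFD sham libraries, which enter every comparison.

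The summed alpha-defensin log2 ratio kept its direction except for diet in the crypts with the mean over cells of each share, which gave 0.12 (45.4% against 41.8%). For diet in the crypts it was otherwise -0.12 with a floor of 4%, -0.089 at 10% mitochondrial UMIs, -0.12 without doublets, -0.12 without free RNA, -0.18 in deep cells and -0.36 with *Lyz1* and alpha-defensins left out of the total. For diet in the villi it was -0.17 and -0.091 with floors of 1 and 4%, -0.077 at 10% mitochondrial UMIs, -0.10 without free RNA, -0.032 in deep cells, -0.30 with that total and -0.29 with the mean over cells. For surgery in the crypts these were 0.20, 0.13, 0.14, 0.14, 0.16, 0.51 and 0.22, and 0.15 without doublets. For surgery in the villi they were 0.24, 0.16, 0.16, 0.17, 0.11, 0.57 and 0.40, and 0.26 without doublets.

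Genes beyond 2-fold numbered 26, 179, 38 and 595 in the 4 comparisons (diet crypts, diet villi, surgery crypts, surgery villi), 83, 491, 149 and 1387 with a minimum mean of 20 UMIs, and 8, 35, 11 and 91 with 200, since fewer or more genes were compared. A floor of 1% gave 64 for surgery in the crypts, and a floor of 4% gave 92 for diet and 371 for surgery in the villi. In the latter, deep cells gave 270, the total without *Lyz1* and alpha-defensins 316 and median-of-ratios scaling 357. The cause was not tested.

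Single named genes moved beyond their counting interval, or changed sign from a value within 2-fold, in 324 of 648 recomputed values. *Defa30* for surgery in the crypts, for example, went from -0.12 to 0.21 with *Lyz1* and alpha-defensins left out of the total. *Mptx2* ranged from -2.50 to -2.13 and -1.96 to -1.56 for diet and from 2.26 to 2.84 and 1.07 to 1.57 for surgery. The number of Paneth cells limits these values, and the HFD sham crypts held 29 cells.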
